A study of Mus musculus with 9 samples.

Results

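Phase II conjugation enzymes were described here across 9 mouse livers: the glutathione S-transferases (Gst), the UDP-glucuronosyltransferases (Ugt) and the cytosolic sulfotransferases (Sult). Members were the protein-coding genes of the count table whose name begins with Gst and a class letter (a, k, m, o, p, t or z) and a number, or with Ugt or Sult and a number. The rule found 51 of 42188 genes, of which 17 were Gst, 16 Ugt and 18 Sult genes. Livers came from 3 groups of 3 wild-type mice, described as 8-week-old C57BL/6 (C57BL/6J) males of 20 to 25 g. MSA_ConA mice had 250 mg/kg of MSA in the peritoneal cavity and, 6 h later, 20 mg/kg of concanavalin A by tail vein. ConA mice had the same lectin dose alone, and Control mice had phosphate-buffered saline by tail vein. Concanavalin A, a lectin of jack beans, stimulates T cells and brings about immune-mediated hepatitis in mice, and the study's title names mesaconate, which MSA was read as. Livers were taken 12 h after the lectin, and no saline injection into the peritoneal cavity is described for ConA mice. The comparisons ask what the lectin did to liver and what MSA given beforehand altered.

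Phase II enzymes attach a polar group to drugs, hormones and products of metabolism, which makes them soluble and ready for export into bile or blood. Gst enzymes add glutathione to electrophiles, Ugt enzymes of the endoplasmic reticulum add glucuronic acid from UDP-glucuronate, and Sult enzymes of the cytosol add sulfate from the donor PAPS (3'-phosphoadenosine 5'-phosphosulfate). Hepatocytes hold most of these activities, several genes are driven by the xenobiotic receptors Car (Nr1i3) and Pxr (Nr1i2) or by the oxidant-responsive factor Nrf2 (Nfe2l2), and in mice many of them differ between male and female liver.

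The libraries divided by the number in their label, and 6 of 9 went against the labelled sex. The libraries numbered 1 held at most 0.485 CPM (reads counted, scaled to the depth of the library) of Xist, an RNA made from the inactive X in females, and those numbered 2 and 3 held 667 to 1132 CPM. The major urinary protein gene Mup21, of a family more abundant in male liver, had 251 to 669.7 CPM with number 1 but no more than 1.44 CPM elsewhere. For Nnt, which lacks several exons in C57BL/6J, the levels were 29.8 to 34.7 CPM for number 1 as against 168 to 266 CPM elsewhere. Each name below (ConA 1 and so on) means the library so labelled, and whatever sets number 1 apart (sex, strain, or handling) cannot be told apart with these labels. Totals ran from 13294600 to 17276391 counts. Hepatocyte markers were high throughout (6 genes summed to 96349 CPM or more). The 4 neutrophil markers summed to 405 CPM in ConA 1, 58.8 CPM in MSA_ConA 1 and 2.50 to 9.02 CPM in the others, and the 6 skeletal muscle markers to 3454 CPM in MSA_ConA 3.

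Levels were compared between genes on the deposited FPKM values (counts scaled by gene length and by an effective total for each library). That total was not the count total: it was 7.43e+06 in MSA_ConA 1, which had 13294600 counts, and 2.00e+07 in MSA_ConA 3, which had 15357621. The 17 Gst members do not include Gsta1, Gsta2 or any Gstp gene, so ranks and sums leave these out. Gstz1, the isomerase of tyrosine breakdown, had the highest mean level of the 17 at 466 FPKM (309.5 to 647 over the 9 libraries). Gstm1, a mu-class enzyme, followed at 318 FPKM, then Gsta3, the alpha-class enzyme that conjugates aflatoxin epoxide in mice, at 298 FPKM, and the theta-class Gstt1 at 161 FPKM. The ranges of these genes over the libraries overlapped (185 to 511 FPKM for Gstm1 and 157 to 359.5 FPKM for Gsta3). Among Ugt members the Ugt2b group, which conjugates steroids, bile acids and drugs, was most abundant: Ugt2b36 averaged 295, Ugt2b1 181, Ugt2b37 141 and Ugt2b34 125 FPKM. Ugt1a5 and Ugt1a9, transcripts of the Ugt1 locus, averaged 18.1 and 16.1 FPKM. Protein-coding entries without a gene name overlap this locus on the same strand and are not members, so these values are not the output of the whole locus. Sult1a1, the phenol sulfotransferase, averaged 369 FPKM and Sult2a8, a bile acid sulfotransferase of mouse liver, 215 FPKM, well ahead of Sult1d1, an amine sulfotransferase of mice, at 55.4 FPKM and Sult2a6, of the hydroxysteroid group, at 21.7 FPKM.

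Summed over all 51 members, the level was 3834, 3888 and 2926 FPKM in MSA_ConA 1, 2 and 3, 3041, 3192 and 3599 FPKM in ConA and 4278, 3583 and 3393 FPKM in Control. On this scale Control 1 was highest and MSA_ConA 3 lowest, and the 3 groups overlapped. Gst genes summed to 1828, 1668 and 1299 FPKM in MSA_ConA, 1657, 1594 and 1597 FPKM in ConA and 2596, 1953 and 1708 FPKM in Control. All 3 ConA sums lay below all 3 Control sums for Gst, while the sums of Ugt (891 to 1208 FPKM in ConA, 856 to 1136 FPKM in Control) and Sult (493 to 795 FPKM in ConA, 546 to 774 FPKM in Control) overlapped. These are sums of levels with no test, and they depend on the effective totals behind FPKM. As shares of the library totals, the Gst sums of ConA and Control overlapped, and MSA_ConA 1 had the lowest sum over all members. In whole liver, fewer hepatocytes and less RNA per hepatocyte cannot be told apart.

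**Figure D1:**
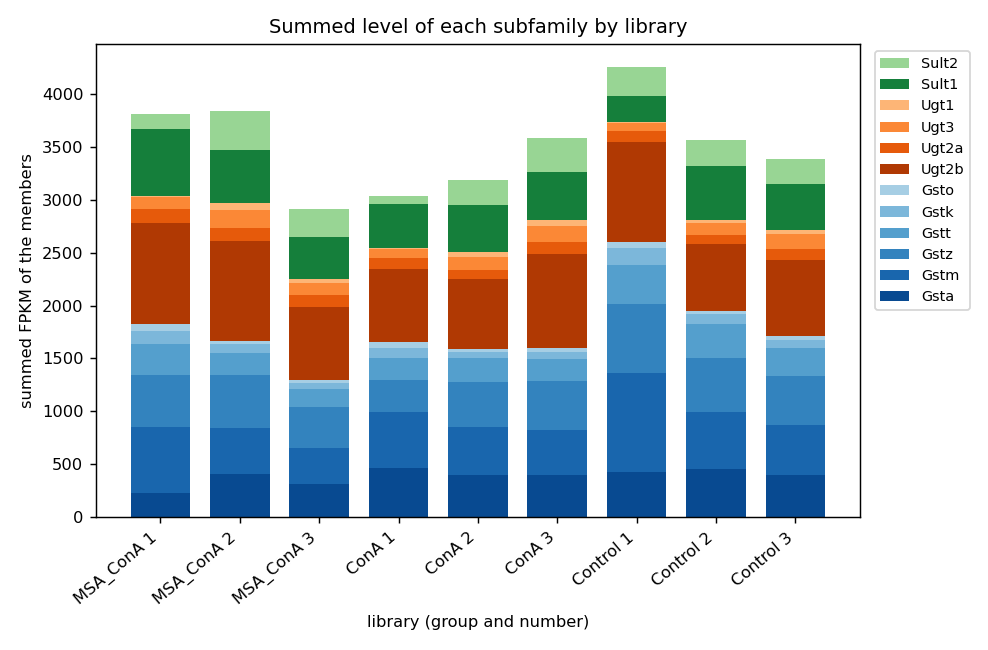
Summed level in FPKM (vertical axis) of 12 subfamilies, stacked, in each of the 9 libraries (horizontal axis, MSA_ConA, ConA and Control from left to right). Control 1 has the tallest bar and MSA_ConA 3 the shortest, and the Gsta, Gstm, Gstz, Ugt2b and Sult1 groups make up most of every bar. The Sult3, Sult4, Sult5, Sult6 and Ugt8 genes are not drawn.

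Of the 51 members, 39 had enough counts to be tested by edgeR among 14603 genes. The 12 others had too few counts: Sult3a2, Ugt1a10, Ugt1a2, Ugt8a, Sult6b1, Ugt1a8, Sult4a1, Sult2b1, Gstt4 and Sult6b2, and Ugt2a2 and Sult1c1, which had none. Several genes that the liver field would look for, such as Gsta1, Gsta2, the pi-class Gstp genes, Ugt1a1 and Sult2a1, are not analysed here. Many members sit in clusters of related genes, on the C57BL/6NJ assembly whose coordinates the tables use. The 7 Gstm genes lie on chromosome 3 from 113499440 to 113667841, the 6 Ugt2b genes on chromosome 5 from 91368294 to 91991092, and the 5 Ugt1 genes on chromosome 1 from 92770204 to 92996661. Sult1b1, Sult1d1 and Sult1e1 lie together on chromosome 5 from 92081326 to 92168210. Reads that fit more than 1 gene could be split between copies. In the GENCODE M21 transcripts, 21 members shared no 50-base stretch with another gene, while 10 members shared over 20% of theirs. Among those 10 are all 5 Ugt1 members (59.7 to 66.2%), which use the same last exons, Ugt2b38 (37.4%), Gstm3 (28.8%), Gstm1 (23.1%) and Sult2a2 (62.1%). Their values are uncertain on that account, and the gene model of Ugt2b38 also spans Ugt2b37 and Ugt2a3.

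**Figure D2:**
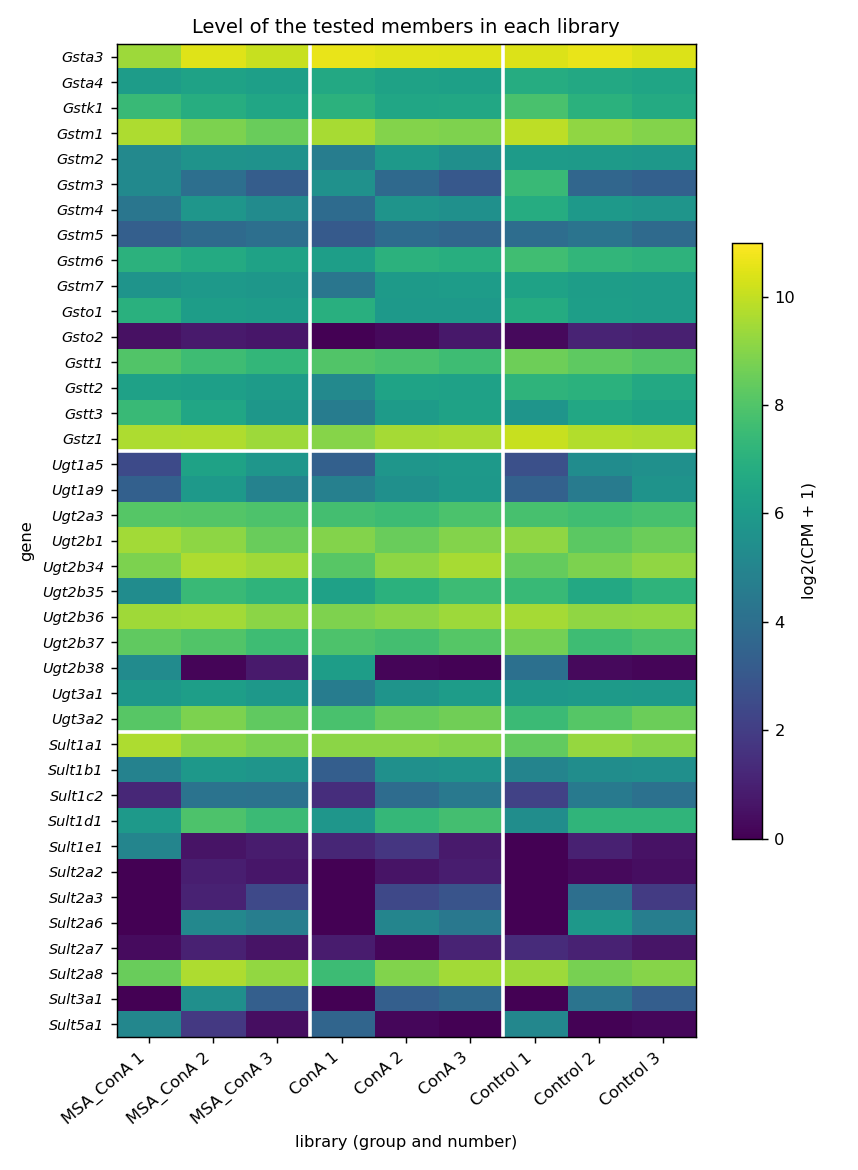
Level of the 39 tested members (rows, Gst, Ugt and Sult from top to bottom) in each of the 9 libraries (columns), as log2(CPM + 1) by colour. The libraries numbered 1 differ from their neighbours in Ugt2b38, Ugt1a5, Sult1c2, Sult2a6, Sult3a1 and Sult5a1.

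Between ConA and Control, 15 of the 16 tested Gst genes had a log2 fold change below 0, with a median of -0.51, but no member passed the test. Ugt genes went both ways (6 above 0 and 5 below, median 0.11), and 4 of 12 Sult genes were above 0 and 8 below (median -0.21). Over the 39 members the median was -0.23, against 0.07 over all 14603 genes. edgeR called 0 of the 39 members and 0% of all genes at an adjusted p under 0.05. At an unadjusted p under 0.05 there were 1 member and 563 genes. DESeq2 called 2 genes and limma-voom 0, none of them a member, with 702 and 240 genes at an unadjusted p under 0.05. The spread within each group includes the division by library number, and p-values rest on that spread, which may be technical in part, so a call of 0 does not show a lack of effect.

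Gstt2, a theta-class enzyme, had the smallest p among members. It measured 35.7, 81.4 and 77.4 CPM in ConA 1, 2 and 3 and 142, 131 and 98.5 CPM in Control livers, so every ConA value lay below every Control value. Its log2 fold change was -0.94 (SE 0.36, unadjusted p = 0.0304, adjusted p = 0.9997 by edgeR). Gstm4, a mu-class gene, measured 13.6, 50.6 and 44.6 CPM in ConA livers and 111, 60.9 and 52.2 CPM in Control livers, again without overlap, with ConA 1 and Control 1 at the extremes (-1.04, SE 0.57, edgeR adjusted p = 0.9997). All 7 Gstm genes had negative log2 fold changes, from -1.60 for Gstm3 to -0.24 for Gstm1.

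Ugt1a9 and Ugt3a1 had the smallest p among the Ugt genes. Ugt1a9 measured 26.9, 45.0 and 56.8 CPM in ConA livers and 9.69, 23.1 and 49.4 CPM in Control livers, and the groups overlapped (log2 fold change 0.65, SE 0.73, edgeR adjusted p = 0.9997). Ugt3a1, which transfers N-acetylglucosamine in place of glucuronic acid, measured 23.5, 50.7 and 67.2 CPM in ConA livers and 57.4, 62.7 and 59.6 CPM in Control livers, with ConA 1 alone far below the rest. Ugt2b36, the most abundant Ugt member, measured 461, 549.8 and 660.3 CPM in ConA livers and 736, 580.4 and 592 CPM in Control livers. Sult1a1 measured 551, 545 and 501 CPM in ConA livers and 323, 621 and 510.4 CPM in Control livers, where Control 1 was the low value. Sult1e1, the oestrogen sulfotransferase, was scarce in both groups, with 13, 45 and 13 counts in ConA and 0, 19 and 9 counts in Control (1.52, SE 1.58, edgeR adjusted p = 0.9997).

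For MSA_ConA against ConA, 27 of the 39 tested members had a log2 fold change above 0 and 12 below (median 0.15, against 0.02 over all genes), and none passed. edgeR called 0 members and 0% of all genes, with 0 members and 248 genes at an unadjusted p under 0.05. DESeq2 and limma-voom also called 0 genes (308 and 43 at an unadjusted p under 0.05). The members with the smallest p were Sult1e1 and Gstt3. For Sult1e1 the MSA_ConA livers numbered 1, 2 and 3 had 30.7, 0.499 and 0.774 CPM, set beside 1.26, 2.32 and 0.739 CPM in ConA livers and 0, 0.993 and 0.468 CPM in Control livers. Only MSA_ConA 1 stood out, the library in which adipocyte markers were also highest (492 CPM), and the log2 fold change of 2.86 (SE 1.60, edgeR adjusted p = 0.9999) turned to -1.24 on the libraries numbered 2 and 3 alone and to -1.17 without MSA_ConA 1. Gstt3, a theta-class gene, measured 176, 90.7 and 56.1 CPM in MSA_ConA livers, 23.3, 64.8 and 79.5 CPM in ConA livers and 53.1, 96.8 and 79.4 CPM in Control livers, and MSA_ConA and ConA overlapped (0.94, SE 0.56, edgeR adjusted p = 0.9999).

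Gsta3 came next by p, with a log2 fold change below 0. It measured 675, 1413 and 1081 CPM in MSA_ConA livers, 1574, 1433 and 1391 CPM in ConA livers and 1385, 1581 and 1388 CPM in Control livers, so that MSA_ConA 1 and 3 lay below all ConA values while MSA_ConA 2 lay among them (log2 fold change -0.47, SE 0.37, edgeR adjusted p = 0.9999). Ugt2a3, a glucuronosyltransferase of bile acids, measured 274, 269 and 243 CPM in MSA_ConA livers, 211, 186 and 239 CPM in ConA livers and 221, 197 and 222 CPM in Control livers. All 3 MSA_ConA values were above those of both other groups, by a log2 fold change of 0.30 against ConA (SE 0.28, edgeR adjusted p = 0.9999). Sult1b1, a thyroid hormone sulfotransferase, measured 28.6, 57.8 and 52.6 CPM in MSA_ConA livers and 8.83, 44.6 and 49.5 CPM in ConA livers. Its log2 fold change of 0.43 became -0.025 without ConA 1.

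MSA_ConA against Control likewise gave 0 called members among 39 and 0% of all genes by edgeR, with 1 member and 730 genes at an unadjusted p under 0.05. DESeq2 called 55 genes and limma-voom 0, none of them a member (971 and 492 at an unadjusted p under 0.05). Of the Gst genes 14 of 16 had a log2 fold change below 0 (median -0.44), and of the Ugt genes 9 of 11 lay above 0 (median 0.30), against a median of 0.07 over all genes. Gstt2 measured 77.4, 72.4 and 65.5 CPM in MSA_ConA livers, below all Control values (-0.79, SE 0.36, edgeR adjusted p = 0.937). Gstt1 measured 256, 192 and 157 CPM in MSA_ConA livers and 382, 304 and 261 CPM in Control livers, also without overlap (-0.65, SE 0.33, edgeR adjusted p = 0.937). Ugt2b34 measured 448, 811 and 682 CPM in MSA_ConA livers and 339, 454 and 583 CPM in Control livers, and these overlapped. The member at an unadjusted p under 0.05 was Sult1e1 (4.38, SE 1.72, unadjusted p = 0.0316, edgeR adjusted p = 0.937), again through MSA_ConA 1, and its log2 fold change was -0.19 on numbers 2 and 3 alone. This comparison shares its libraries with those above and is no independent support for them.

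Members differed by the number of the library, where the groups had given no call. In a fit with the group in the model, 17 of 39 tested members differed between the libraries numbered 1 and those numbered 2 and 3, which is 43.6%, against 38.3% of all genes tested (edgeR quasi-likelihood, adjusted p under 0.05). With so many genes called, the share is not a result about phase II genes as a group. The division was taken from these same data, so the calls are no independent support for it. Of the 17, 6 were higher in number 1 and 11 lower, where all genes gave 19.1% and 19.2%. By family, 4 of 16 Gst genes were higher and none lower, 1 of 11 Ugt genes was higher and 4 lower, and 1 of 12 Sult genes was higher and 7 lower, but with library totals in place of TMM factors the Gst genes turned to 1 higher and 5 lower. That scaling moved the median of all genes by -0.71 and gave 3 members higher and 19 lower, with 1 and 6 of the Ugt genes and 1 and 8 of the Sult genes. Among the tested members, 6 were higher in number 1 without overlap (14.8% of all genes) and 9 lower without overlap (19.2% of all genes). Genes such as Ugt2b38, Sult5a1, Sult2a2, Sult2a3, Sult2a6 and Sult3a1 could pass the filter on low counts only through the libraries in which they were high. They were bound to differ, so their calls among the 17 are no support for a difference.

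**Figure D3:**
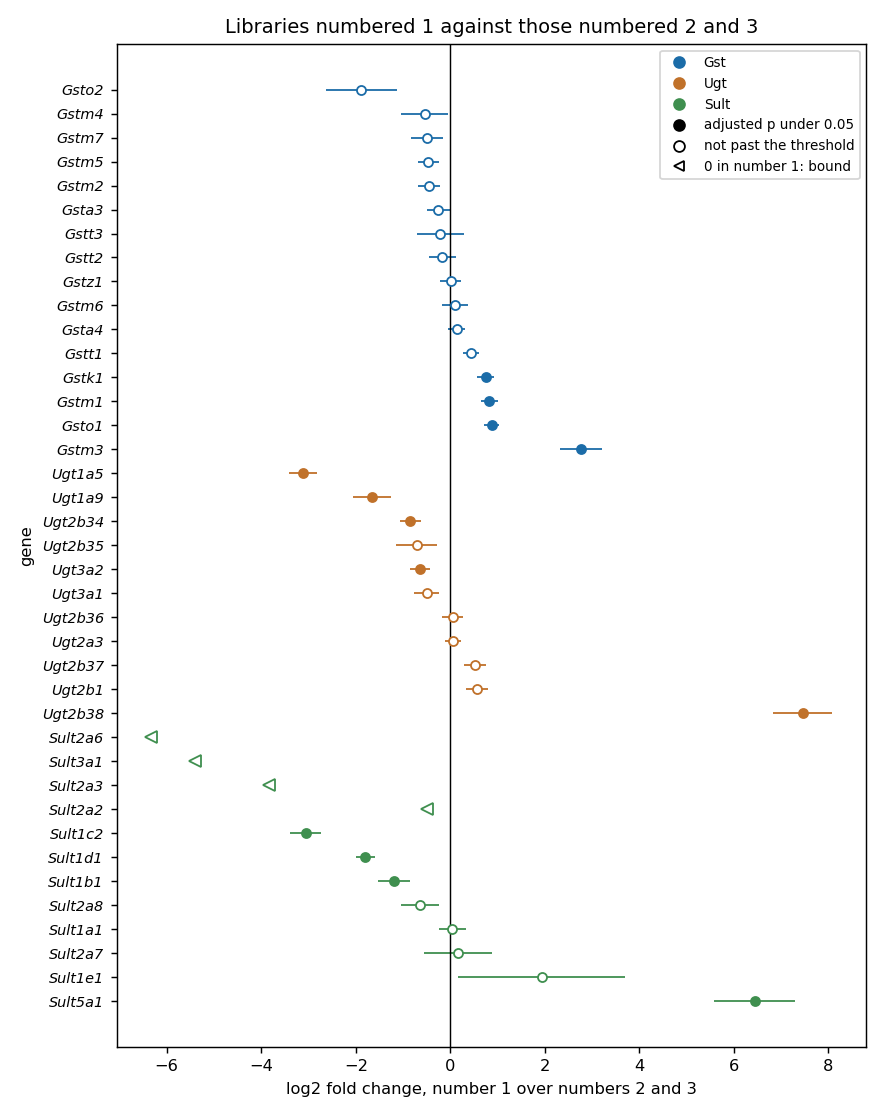
Log2 fold change of number 1 over numbers 2 and 3 (horizontal axis) for the 39 tested members (vertical axis), with bars for the standard error of the edgeR fit. Filled points passed an adjusted p under 0.05. Triangles mark Sult genes with no count in number 1, drawn at the bound that 3 counts per library allow. Ugt2b38 and Sult5a1 lie far to the right, and Sult2a6, Sult3a1 and Sult2a3 to the left.

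Among Gst genes Gstm3, a mu-class enzyme, differed most. It measured 36.8, 45.7 and 177 CPM in MSA_ConA 1, ConA 1 and Control 1, and 7.22 to 15.2 CPM in numbers 2 and 3 (median 10.5), with no overlap (log2 fold change 2.75, SE 0.44, edgeR adjusted p = 0.00314). Control 1 was the highest of all. Gsto1, an omega-class enzyme that reduces dehydroascorbate, measured 125, 122 and 109.5 CPM in MSA_ConA 1, ConA 1 and Control 1, and 60.3 to 70.7 CPM in numbers 2 and 3 (median 65.1), again with no overlap (0.87, SE 0.16, edgeR adjusted p = 0.00436). Gstm1 measured 806, 759 and 960.1 CPM in MSA_ConA 1, ConA 1 and Control 1, and 357 to 584 CPM in numbers 2 and 3 (median 479), without overlap (0.83, SE 0.18, edgeR adjusted p = 0.00976). The mitochondrial Gstk1 was the other Gst gene past the threshold (0.75, SE 0.18, edgeR adjusted p = 0.0137). Scaled by library totals, Gstm1, Gsto1 and Gstk1 had log2 fold changes of 0.11, 0.15 and 0.05 and no longer passed, while Gstm3 did.

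Glucuronosyltransferases went in both directions. Ugt2b38 measured 38.1, 68.3 and 15.8 CPM in MSA_ConA 1, ConA 1 and Control 1, and 0.0568 to 0.722 CPM in numbers 2 and 3 (median 0.107). The log2 fold change was 7.45 (SE 0.63), for a gene that passed the filter only through number 1. Ugt2b37, which lies within the gene model of Ugt2b38, measured 319, 242 and 415 CPM in MSA_ConA 1, ConA 1 and Control 1, and 192 to 274 CPM in numbers 2 and 3 (median 219), and did not pass (0.51, SE 0.23, edgeR adjusted p = 0.112). Ugt1a5 was low in number 1, at 4.62, 9.22 and 5.37 CPM in MSA_ConA 1, ConA 1 and Control 1, against 39.9 to 78.9 CPM in numbers 2 and 3 (median 53.3), with no overlap (-3.11, SE 0.29, edgeR adjusted p = 0.000515). The neighbouring Ugt1a9, a drug-conjugating form, measured 9.37, 26.9 and 9.69 CPM in MSA_ConA 1, ConA 1 and Control 1, against 23.1 to 61.2 CPM in numbers 2 and 3 (median 47.2). There ConA 1 lay among the others, and the log2 fold change was -1.65 (SE 0.40, adjusted p = 0.0137) by edgeR. Ugt2b34 measured 448, 281 and 339 CPM in MSA_ConA 1, ConA 1 and Control 1, against 454 to 811 CPM in numbers 2 and 3 (median 632), with no overlap (-0.84, SE 0.22, edgeR adjusted p = 0.0188), and Ugt3a2 was the other Ugt gene called lower (-0.65, SE 0.21, edgeR adjusted p = 0.0394).

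Several Sult genes had no count at all in number 1. Sult2a6 had no count in any library numbered 1 and 3632 counts in the 6 others, where it measured 20.0 to 57.8 CPM (median 28.0). Against a floor of 3 counts per library it was at least 81.1-fold lower in number 1. Sult3a1, an amine sulfotransferase that is female-predominant in mouse liver, also had no count in number 1 and measured 8.74 to 42.9 CPM in numbers 2 and 3 (median 10.7), at least 42.0-fold lower in number 1. The hydroxysteroid sulfotransferase Sult2a3 had no count in number 1 either and 1.05 to 15.0 CPM in numbers 2 and 3 (median 4.31), at least 14.2-fold lower in number 1. Sult2a6, Sult3a1 and Sult2a3 passed the filter only through numbers 2 and 3, so their calls were bound to occur and no p-value is given. The untested Sult3a2 and the scarce Sult2a2 were at 0 in number 1 as well, with at most 3.49 CPM elsewhere.

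Sult2a8, of the same group as Sult2a6 and far more abundant, did not divide the libraries: it measured 354, 184 and 668 CPM in MSA_ConA 1, ConA 1 and Control 1, against 425 to 796 CPM in numbers 2 and 3 (median 556), with a log2 fold change of -0.63 (SE 0.40, edgeR adjusted p = 0.237). Sult1c2 and Sult1d1 were lower in number 1 without overlap. Sult1d1 measured 61.5, 54.0 and 40.6 CPM in MSA_ConA 1, ConA 1 and Control 1, against 146 to 245 CPM in numbers 2 and 3 (median 171), with a log2 fold change of -1.80 (SE 0.20, edgeR adjusted p = 0.000835), and the log2 fold change of Sult1c2 was -3.06 (SE 0.34, adjusted p = 0.000823). Sult5a1 was the Sult gene that was higher, at 33.4, 10.9 and 33.3 CPM in MSA_ConA 1, ConA 1 and Control 1, against 0 to 2.55 CPM in numbers 2 and 3 (median 0.155). The log2 fold change was 6.43 (SE 0.85), for a gene that passed the filter only through number 1. Xist, Mup21 and Nnt, given above, moved with these differences, and their part in them was not tested.

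**Figure D4:**
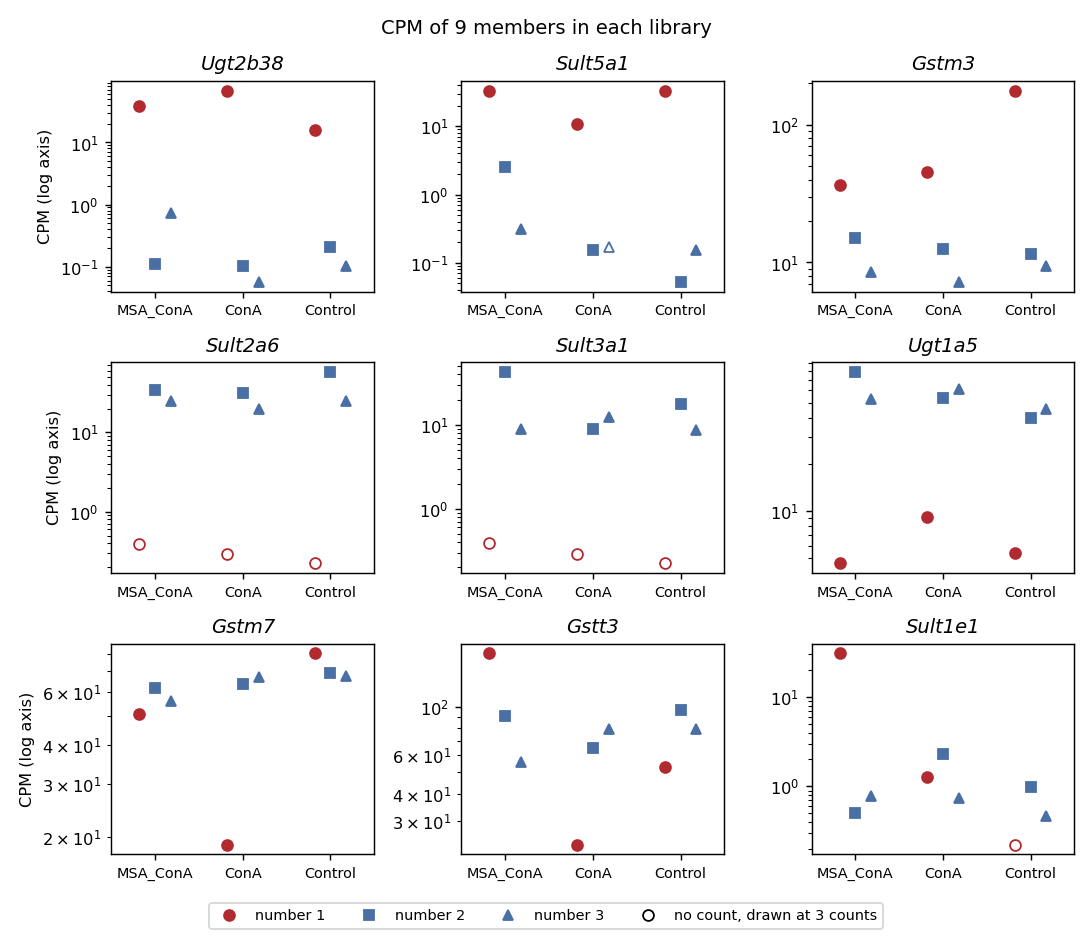
CPM (vertical, log axis) of 9 members in the MSA_ConA, ConA and Control libraries, with red circles for number 1, squares for number 2 and triangles for number 3. Open symbols had no count and are drawn at 3 counts. Number 1 stands above numbers 2 and 3 in Ugt2b38, Sult5a1 and Gstm3 and below them in Sult2a6, Sult3a1 and Ugt1a5, while Gstm7, Gstt3 and Sult1e1 differ by group within number 1.

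The saline livers, which had no lectin, were also compared alone (Control 1 against Control 2 and 3, a test chosen after the data were seen). Control 1 is a single library, assumed to vary like the pairs that give the spread, so its calls compare that library with the others. There 15 of 39 members passed, 8 higher and 7 lower in Control 1, against 27.8% of all genes (12.1% higher and 15.7% lower). Of these, 12 were among the 17 above, which rest in part on the same libraries and so give no independent support. Gstm3 (4.08), Ugt2b38 (6.59) and Sult5a1 (8.21) were higher and Ugt1a5 (-2.99), Sult1d1 (-1.85) and Sult1c2 (-2.44) lower on the log2 scale. Ugt2b38 and Sult5a1 passed the filter only through number 1. Sult2a3, Sult2a6 and Sult3a1, also among the 7 lower, passed it only through numbers 2 and 3. All of these were bound to differ, so their calls among the 15 are no support for a difference. Gstm4 (0.98, SE 0.23, edgeR adjusted p = 0.0190) and Ugt2b37 (0.97, SE 0.25, edgeR adjusted p = 0.0279) passed upward and Sult1a1 (-0.81, SE 0.22, edgeR adjusted p = 0.0337) downward in the saline livers, though not over all 9 libraries. The abundant Gsta3, Gstt1, Ugt2a3, Ugt2b1 and Ugt2b36 gave no call in any comparison, and neither did Gsta4, Gstm5, Gsto2 and Sult2a7. Gsta4 measured 65.8 to 113 CPM and Gstm5 7.77 to 17.8 CPM over the 9 libraries, and Gsto2 and Sult2a7 at most 1.15 and 1.57 CPM.

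Promoter sequences of the members were searched for motifs. RefSeq windows of GRCm38.p6, from 250 bases before to 50 after the start, were found for 45 of 51 members. The letters GTTAAT, any base and ATT, which the liver factor Hnf1 binds, occurred on either strand in 5 of these 45 members (Sult2a6, Sult2a3, Sult1d1, Ugt1a9 and Ugt1a10) and in 0.399% of all 32851 windows. The members are counted here as genes, which hold 56 windows, and the matches include a pair from the Sult2a group and a pair from the Ugt1 locus, related genes that are not independent. Stretches from 130 bases before to 20 after the start are shown for the 4 tested members of these, with the matching letters in capitals. They lie on the reference strain C57BL/6J, at chr7:14254851-14255000 (minus strand), chr7:14123029-14123178 (minus), chr5:87568987-87569136 (minus) and chr1:88070649-88070798 (plus), and Ugt1a9 holds the motif in reverse.
Sult2a6: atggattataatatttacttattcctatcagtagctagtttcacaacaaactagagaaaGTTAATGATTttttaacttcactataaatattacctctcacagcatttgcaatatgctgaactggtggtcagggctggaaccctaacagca
Sult2a3: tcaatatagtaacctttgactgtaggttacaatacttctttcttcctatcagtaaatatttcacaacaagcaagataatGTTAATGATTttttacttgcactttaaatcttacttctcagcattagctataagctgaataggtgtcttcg
Sult1d1: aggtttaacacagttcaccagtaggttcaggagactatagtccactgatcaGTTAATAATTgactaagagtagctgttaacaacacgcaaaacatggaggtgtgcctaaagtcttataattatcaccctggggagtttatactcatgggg
Ugt1a9: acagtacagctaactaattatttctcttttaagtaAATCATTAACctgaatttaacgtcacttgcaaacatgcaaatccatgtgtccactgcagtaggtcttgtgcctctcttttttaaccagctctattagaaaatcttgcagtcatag
The match starts 71, 51, 79 and 95 bases before the start in Sult2a6, Sult2a3, Sult1d1 and Ugt1a9. In Sult2a6 and Sult2a3 the matched 10 letters are the same. A match is a description of letters, not of binding. All 4 were called lower in number 1, but Sult2a6 and Sult2a3 were bound to differ and Ugt1a9 overlapped. Members without these letters, such as Sult3a1, were also low in number 1. The part of the motif in these levels was not tested.

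The antioxidant response core TGACNNNGC, which Nrf2 binds, occurred in 3 members (Gsta3, Gstm5 and Gstm7, either strand) and in 12.4% of all windows. Gsta3, a known target of Nrf2, carries it 121 bases before the start at chr1:21240455-21240604 (plus strand), shown because Gsta3 is the most counted Gst member.
Gsta3: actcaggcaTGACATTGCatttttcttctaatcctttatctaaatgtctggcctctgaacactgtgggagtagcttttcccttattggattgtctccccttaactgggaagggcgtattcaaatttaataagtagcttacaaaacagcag
The STAT site TTCNNNGAA, the form bound by the growth hormone-responsive factor Stat5, was found in 2 members, Sult3a1 and Gstm6, and in 8.30% of all windows.

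The difference between ConA 1 and Control 1 was set against that between ConA and Control in numbers 2 and 3. The test was the interaction term of a model that gives each group and number class its own mean, and the lone number 1 library of a group was taken to vary as the pairs did. The spread thus comes from numbers 2 and 3 alone, and the libraries numbered 1 differed widely from each other: Hp, an acute-phase gene, measured 59707, 42004 and 9232 CPM in MSA_ConA 1, ConA 1 and Control 1 and 1052 to 1704 CPM in the rest. The calls below therefore describe these single libraries, not a treatment effect in livers of their kind. It called 11 of 39 members (28.2%), all of them lower in number 1, against 31.1% of all genes in either direction and 15.4% lower. Without Control 2 it called 7 members and without Control 3 it called 6, all lower. The 11 were 7 Gst genes (Gstm4, Gstm7, Gstm3, Gstt2, Gstm6, Gstm2 and Gstz1), 2 Ugt genes (Ugt2b35 and Ugt3a1) and 2 Sult genes (Sult2a8 and Sult1b1). All 7 Gstm genes had a negative difference (median -1.25, against -0.09 over all genes). In Control 1 against Control 2 and 3, which shares those Control libraries, 6 of the 7 were above 0 and 1 below (median 0.45). A high Control 1 alone would give a lower effect. DESeq2 called 2 members upward besides 11 downward. With library totals as the scale 16 were lower and none higher, with the median of all genes moved by -0.54.

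In number 1, Gstm4 measured 13.6 CPM in ConA 1 against 111 CPM in Control 1, while ConA 2 and 3 had 50.6 and 44.6 CPM and Control 2 and 3 60.9 and 52.2 CPM. Between the libraries numbered 1 it was 8.20-fold lower (95% interval 6.89 to 9.82), an interval that covers counting error only and has no replicate check. The difference in effect was -2.79 (SE 0.35, adjusted p = 0.00192) by edgeR. Gstm7, of the same cluster, measured 18.9 CPM in ConA 1 against 80.2 CPM in Control 1, and 63.4 to 68.9 CPM in ConA and Control libraries numbered 2 and 3. ConA 1 alone was low, 4.23-fold lower (95% interval 3.63 to 4.96), with a difference in effect of -2.02 (SE 0.24, adjusted p = 0.00157). Gstt2 was 3.98-fold lower (95% interval 3.56 to 4.47) and Gstz1 2.11-fold lower (95% interval 2.05 to 2.18) in ConA 1 than in Control 1. Gstm1 and Gsta3, the abundant forms, did not pass (-0.18 and 0.26), and Gsta3 measured 1574 CPM in ConA 1 against 1385 CPM in Control 1.

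Ugt2b35 measured 76.5 CPM in ConA 1 against 171 CPM in Control 1, against 129 and 184 CPM in ConA 2 and 3 and 98.9 and 141 CPM in Control 2 and 3. It was lower with the lectin in number 1 and higher in both other numbers (-1.54, SE 0.42, edgeR adjusted p = 0.0308). The call was lost without ConA 3 and without Control 2 (adjusted p = 0.0748 and 0.0690), and that of Ugt3a1 (-1.24, SE 0.33, edgeR adjusted p = 0.0274) without ConA 3, Control 2 or Control 3 (adjusted p = 0.0635, 0.0580 and 0.0848). Ugt2b36 and Ugt2b1, the leading Ugt members by FPKM, did not pass (-0.72 and -0.56). Sult2a8, the bile acid sulfotransferase, measured 184 CPM in ConA 1 against 668 CPM in Control 1, 3.64-fold lower (95% interval 3.46 to 3.82). In numbers 2 and 3 it was higher in ConA, at 485 and 709.8 CPM, than in Control, at 425 and 517 CPM (-2.21, SE 0.42, edgeR adjusted p = 0.00861). Sult1b1 was 3.43-fold lower (95% interval 2.72 to 4.35) in ConA 1 than in Control 1 (-1.93, SE 0.25, edgeR adjusted p = 0.00220).

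Markers of other cells moved with ConA 1. The 5 cholangiocyte markers summed to 784 CPM there, against 48.8 to 116 CPM in the 8 other libraries, and the neutrophil sum of 405 CPM is given above. No defining marker of these lists was at 0 in every library. The hepatocyte sum was 96349 CPM in ConA 1, the lowest of all, and 111525 CPM in Control 1. The part of these cells in the lower Gst, Ugt and Sult transcripts was not tested.

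**Figure D5:**
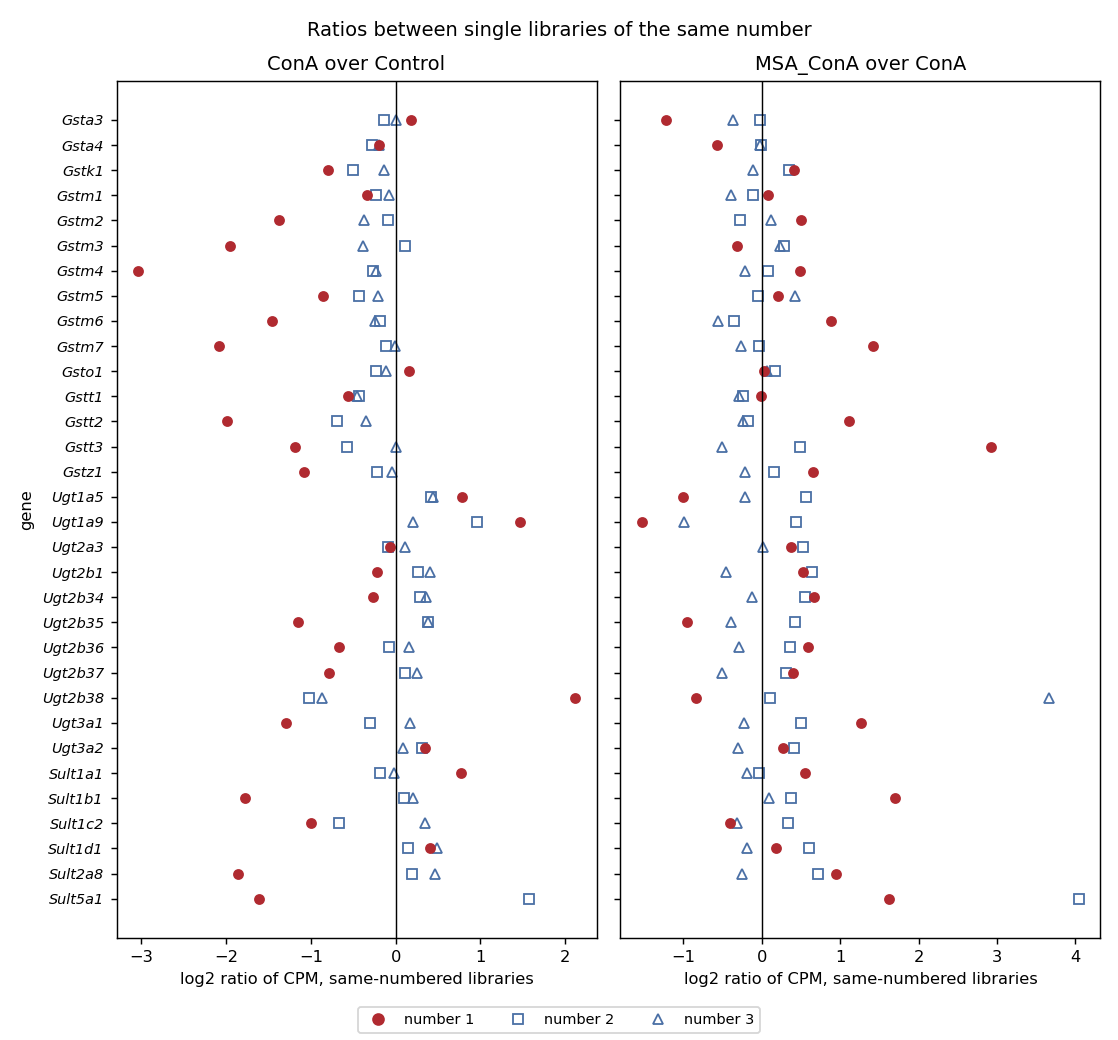
Log2 ratio of CPM between same-numbered libraries (horizontal axis) for the 32 members with a mean of at least 5 CPM and a count in number 1 (vertical axis). The left panel shows ConA over Control and the right panel MSA_ConA over ConA. Filled circles stand for number 1, open squares for number 2 and open triangles for number 3. In the left panel most Gst circles lie left of the other symbols, and in the right panel the circle of Gstt3 lies further right than any other circle.

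The difference between MSA_ConA 1 and ConA 1 was set in the same way against that of numbers 2 and 3, again on 1 library each in number 1. It called 6 of 39 members (15.4%), all higher in number 1, against 18.7% of all genes in either direction and 8.59% higher. They were Sult1e1, Gstt3, Gstm7, Sult1b1, Gstm6 and Gstt2. With library totals as the scale, 5 members passed upward and 2 downward (median of all genes moved by -0.28), and DESeq2 gave 7 upward and 2 downward. Between the libraries numbered 1, Gstt3 measured 176 CPM in MSA_ConA 1 and 23.3 CPM in ConA 1, 7.56-fold higher (95% interval 6.59 to 8.72), with Control 1 at 53.1 CPM. In numbers 2 and 3 the values were 90.7 and 56.1 CPM in MSA_ConA livers against 64.8 and 79.5 CPM in ConA livers, 1 pair up and 1 down (2.89, SE 0.44, edgeR adjusted p = 0.00693). Sult1e1 rested on 233 counts in MSA_ConA 1, 13 in ConA 1 and 0 in Control 1, 24.4-fold higher (95% interval 14.0 to 46.4) in MSA_ConA 1 than in ConA 1 (5.86, SE 1.06, edgeR adjusted p = 0.0120). In MSA_ConA 1, ConA 1 and Control 1 the 4 adipocyte markers summed to 492, 143 and 15.3 CPM, and to 7.96 to 106 CPM in numbers 2 and 3. The hepatocyte sum was also highest in MSA_ConA 1. The part of these in the Sult1e1 and Gstt3 levels was not tested.

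Side by side, the genes called in both tests had these levels in MSA_ConA 1, ConA 1 and Control 1. Gstm7 measured 50.5, 18.9 and 80.2 CPM, Gstm6 132, 71.8 and 198 CPM, Gstt2 77.4, 35.7 and 142 CPM, and Sult1b1 28.6, 8.83 and 30.3 CPM. MSA_ConA 1 lay between ConA 1 and Control 1 in each. Both tests use ConA 1, so a low value there alone gives opposite signs in them. Gstm4 and Gstm3 stayed near their ConA 1 level in MSA_ConA 1, at 19.1 and 36.8 CPM, and were not called (0.54 and -0.57). Gsta3 was 2.33-fold lower (95% interval 2.26 to 2.41) in MSA_ConA 1 than in ConA 1, and its difference in effect did not pass (-1.04, SE 0.32, edgeR adjusted p = 0.0627). Ugt genes gave no call here, with Ugt3a1 nearest (1.13, SE 0.33, edgeR adjusted p = 0.0522), and Ugt1a9 measured 9.37 CPM in MSA_ConA 1 and 26.9 CPM in ConA 1.

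Genes that supply the conjugation reactions were read from the same tests, and none was called between the groups. For glutathione supply, 4 of 9 tested genes had a ConA effect that was higher in number 1 and none lower, where 15.7% of all genes were higher: the ligase subunit Gclc, the reductase Gsr, the cystine transporter gene Slc7a11 and Chac1, which degrades glutathione. Gclc measured 42.6, 347 and 293 CPM in MSA_ConA livers, 884, 253 and 355 CPM in ConA livers and 186, 209 and 261 CPM in Control livers, with ConA 1 high and MSA_ConA 1 low (1.87 (SE 0.37, adjusted p = 0.0102) and -4.45 (SE 0.40, adjusted p = 0.000952) by edgeR for the 2 effects). Of the 9 genes 3 had an MSA_ConA against ConA effect that was lower in number 1, Gclc, Gsr and Slc7a11, where 10.1% of all genes were lower. For UDP-glucuronate supply, the ConA effect was higher in number 1 for Pgm1 and lower for Slc35d1, of 6 genes tested. Ugp2, which makes UDP-glucose, measured 159, 109 and 139 CPM in MSA_ConA 1, ConA 1 and Control 1, against 335 to 589 CPM in numbers 2 and 3 (-1.76, SE 0.24, edgeR adjusted p = 0.00172).

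For sulfate supply, 1 of 9 genes had a lower ConA effect in number 1, Papss2, the main maker of PAPS in liver. Papss2 measured 236, 406 and 265 CPM in MSA_ConA livers, 62.6, 277 and 301 CPM in ConA livers and 207, 303 and 287 CPM in Control livers, so ConA 1 alone was low (-1.70 (SE 0.37, adjusted p = 0.0142) and 1.70 (SE 0.37, adjusted p = 0.0224) by edgeR). Slc26a1, the hepatic sulfate transporter, was lower in number 1 (-1.64, SE 0.42, edgeR adjusted p = 0.0173). Of 6 exporters, the ConA effect was lower in number 1 for 3 and higher for none, where 15.4% of all genes were lower. These were Abcc2, which moves glutathione and glucuronide conjugates into bile, Abcg2, which exports sulfates, and the bile salt pump Abcb11 (-2.47, SE 0.46, edgeR adjusted p = 0.00813). Abcb11 measured 157, 190.1 and 909 CPM in MSA_ConA 1, ConA 1 and Control 1, and 422 to 677 CPM in numbers 2 and 3, so Control 1 was the highest of all. Abcg2 measured 74.0, 53.1 and 114 CPM in the same libraries numbered 1, all above the 25.2 to 40.6 CPM of numbers 2 and 3. Abcc2 measured 224, 184 and 309 CPM there, all below the 343 to 558 CPM of numbers 2 and 3. Counts for the other conjugation routes went both ways in that test: 1 of 11 methylation and acetylation genes was higher and 4 lower, 3 of 7 amino acid conjugation genes were lower, and 1 of 7 deconjugation genes was higher. Of 5 other glutathione transferases, none was called in that test, and in number 1 against numbers 2 and 3 Mgst1 was higher and Mgst3 and Gstcd were lower.

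A list of 14 genes held regulators of these genes and also Por, a reductase that is not a regulator. Among the 14, the ConA effect was higher in number 1 for 6 (Cebpb, Por, Arnt, Ahr, Cebpa and Keap1). It was lower for 1, Nr1i3, against 15.7% and 15.4% of all genes. In Control 1 against Control 2 and 3, which shares those Control libraries, 7 of the 14 were lower and none higher (median -0.61), so a low Control 1 alone would give a higher effect. Nr1i3, the receptor Car, measured 45.8, 61.9 and 59.4 CPM in MSA_ConA livers, 18.8, 75.6 and 71.5 CPM in ConA livers and 44.7, 101 and 85.4 CPM in Control livers, lowest in ConA 1 (-0.90, SE 0.26, edgeR adjusted p = 0.0340). Nr1i2, the receptor Pxr, was highest in MSA_ConA 1 at 231 CPM, against 94.7 CPM in ConA 1 (1.66, SE 0.28, edgeR adjusted p = 0.00996). Nfe2l2 transcripts measured 94.3, 91.0 and 82.9 CPM in MSA_ConA livers, 145, 85.6 and 81.6 CPM in ConA livers and 95.1, 82.9 and 85.2 CPM in Control and passed no test. Ahr, the dioxin receptor, measured 70.1 CPM in ConA 1 against 18.1 CPM in Control 1 (1.46, SE 0.31, edgeR adjusted p = 0.0128). Of 7 genes known as Nrf2 targets, 2 had a higher ConA effect in number 1 (Srxn1 and Gclc) and 3 a lower MSA_ConA against ConA effect (Srxn1, Gclc and Nqo1), against 15.7% and 10.1% of all genes. Nqo1, a quinone reductase, measured 2.37 CPM in MSA_ConA 1 and 8.83 CPM in ConA 1 (-2.06, SE 0.46, edgeR adjusted p = 0.0233).

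Of 8 regulators known to differ between male and female mouse liver, 1 was higher and 5 were lower in number 1, against 19.1% and 19.2% of all genes. Cux2, the female-predominant factor, measured 3.56, 0.388 and 0.447 CPM in MSA_ConA 1, ConA 1 and Control 1, and 25.7 to 65.7 CPM in numbers 2 and 3 (-5.22, SE 0.78, edgeR adjusted p = 0.00236). Bcl6, a repressor more abundant in male liver, was the gene that was higher (1.64, SE 0.40, edgeR adjusted p = 0.0137). Cux2 divided the libraries without overlap, as Sult2a6 and Sult3a1 did. Bcl6 overlapped, at 195, 120 and 24.3 CPM in MSA_ConA 1, ConA 1 and Control 1, and 9.14 to 51.4 CPM in numbers 2 and 3. The part of these regulators in the division was not tested.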

How the data were processed

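RNA from 9 whole livers was sequenced, with no statement that any animals were pooled. The authors deposited read counts per gene and FPKM values in a table of the whole series, per the file headers, with gene identifiers and coordinates of the C57BL/6NJ assembly. Bowtie 0.12.2 appears in the submitters' processing notes beside 2 builds, mm10 and mm8, without their roles. Which tool counted reads, and whether by strand, is not given in the sources used here. Columns headed M were matched to MSA_ConA, and 0 columns had no sample.

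Counts were tested in R 4.3.3 with edgeR 4.0.16 (filterByExpr, TMM factors, quasi-likelihood test, Benjamini-Hochberg adjustment over all 14603 genes, threshold 0.05), in a fit over all 9 libraries. TMM factors ran from 0.571 to 1.26 and were lowest in MSA_ConA 1. CPM divides a count by the library total times its TMM factor. FPKM, which rests on the effective totals described above, is used for levels between genes and for summed levels. Scripts were tested on simulated data.

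Same-numbered libraries deviated together (r of 0.479 to 0.713 among those numbered 1, 0.349 to 0.553 among those numbered 2, 0.303 to 0.472 among those numbered 3), and so did number 2 with number 3 (0.313 to 0.681), while number 1 against the others gave -0.676 to -0.373. Deviations were taken from group means, so the negative values follow in part from the positive ones. Number 1 was contrasted with numbers 2 and 3, with group in the model. Differences in effect were fitted with a mean for each group and number class. The division was known from earlier results of these data, so the p-values of that contrast are no independent support for it. Alternatives were DESeq2 1.42.0, limma 3.58.1 (voom, and log2 FPKM), other scalings and filters, a replicate block, and each library left out. Intervals of single-library ratios are exact binomial intervals at 95%.

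Genes were named as the 4 highest per family by mean FPKM, the 2 per family with the smallest p in each group comparison, and those with the largest or most certain calls per family in the other tests, with a mean CPM of at least 1. Members, lists and rules were chosen with earlier results of these data known.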

Additional observations from a re-analysis of the deposited data

Results flagged for a closer look

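The difference between ConA and Control was tested against itself in the libraries numbered 1 and those numbered 2 and 3, by the interaction term of the edgeR fit, which passed for 6 of the named genes. On the log2 scale the interaction terms, number 1 minus numbers 2 and 3, were -2.79 for Gstm4, -2.02 for Gstm7, -2.21 for Sult2a8, -1.93 for Sult1b1, -1.54 for Ugt2b35 and -1.24 for Ugt3a1. The same term for MSA_ConA against ConA passed for 4 named genes, at 5.86 for Sult1e1, 2.89 for Gstt3, 1.56 for Gstm7 and 1.46 for Sult1b1. Each term rests on 1 library per group in number 1, which is assumed to vary like the pairs, so it describes those single libraries, and both sets use ConA 1.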

How the results depend on the processing

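Counts of called members stayed within 1.5 times under 112 settings and moved under 2: for the ConA effect in number 1 against numbers 2 and 3, 11 members became 7 without Control 2 and 6 without Control 3, in a range of 6 to 13 over the libraries left out. For the MSA_ConA against ConA effect that range was 4 to 8 around 6, and for number 1 against numbers 2 and 3 it was 15 to 22 around 17. DESeq2 gave 13, 9 and 19 members for these tests in that order, and limma-voom 10, 6 and 17. With the replicate block by library number, and with number 1 against the others as the block, edgeR called 0 members in all 3 group comparisons, as without it. All settings of these 3 comparisons set 0 members against 0 and are counted among the 112. The 112 therefore overstates how far the tests with calls were checked. Single genes kept direction and call in 661 fits, lost the call in 11 and turned in 4: Sult1b1 in MSA_ConA against ConA (-0.025 without ConA 1), and Sult1e1 in MSA_ConA against ConA (-1.24 with numbers 2 and 3 only, -1.17 without MSA_ConA 1) and against Control (-0.19 with numbers 2 and 3 only). The 661 fits include those of the group comparisons, in which the main fit called no gene. Over the libraries left out, the log2 fold change of Sult1b1 ran from -0.025 to 0.79 and that of Sult1e1 in MSA_ConA against ConA from -1.17 to 3.41. The cause was not tested. Library totals lowered the median of all genes by the shifts given above, and turned the Gst genes called in number 1 to 1 higher and 5 lower, against 4 higher and 0 lower with TMM, RLE or TMM without the 20 most counted genes. Differences in effect could not be fitted without a number 1 library of their groups, and those fits were not run. With 1 library of number 1 per group, counting depth is not the limit for most members, but Sult1e1, Sult2a2, Gsto2 and Sult2a7 rest on few counts.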
